A study of Rattus norvegicus with 6 samples.

Results

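Integrins are receptors of the cell surface, each a pair of an α and a β subunit, that hold cells to the extracellular matrix or to other cells. Inside the cell their tails are joined to actin through adaptor proteins, among them talins, kindlins, vinculin and the complex of integrin-linked kinase, PINCH and parvin, and the sites where they gather on matrix are called focal adhesions. In the spleen, matrix-binding integrins are made by smooth muscle, fibroblasts and endothelium, among other cells. The β2 and β7 integrins belong to leukocytes, and αIIb belongs to platelets and megakaryocytes. The list of integrin subunits and focal adhesion adaptors comprised 40 genes, in 4 role groups of 16 matrix-binding integrins, 8 leukocyte integrins, 2 platelet integrins and 14 adaptors. A gene was measured where a transcript cluster (the array's unit for 1 transcript) carried its symbol alone, and among several such clusters the brightest one, averaged over the 6 arrays, stood for it. This gave 37 of the 40 genes, out of 18166 genes measured in all. Itgav, Itgae and Itgb3 were not analysed here.

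The tissue was whole spleen of male Sprague-Dawley rats. In 3 rats the portal vein was narrowed by partial portal vein ligation (PPVL), a model of portal hypertension without cirrhosis, and 3 sham rats had the portal vein exposed in the same way but not tied. A piece of each spleen was taken 10 days after surgery, and its RNA was measured on 1 Affymetrix array per rat. All values are on the log2 scale after Robust Multiarray Average (RMA) processing by the authors, so that a difference of 1 is a doubling, and a level can be compared between rats but not between genes.

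Each array sampled all cells of the tissue, so fewer cells of a type and less RNA per cell cannot be told apart in any value below. Markers of the main cells of spleen averaged 9.44 to 9.68 in PPVL rats and 9.43 to 9.54 in sham rats for T cells, and 11.01 to 11.25 in PPVL rats and 10.99 to 11.21 in sham rats for B cells. Macrophage markers averaged 10.4261 to 10.56 in PPVL rats and 10.37 to 10.4255 in sham rats, with groups that did not overlap. None of the 25 measured genes of these 3 lists passed the threshold used below, which 4.23% of all genes passed. The array of PPVL rat 1 stood apart. Of 15 measured exocrine pancreas genes, 15 were highest in that rat, where they averaged 10.24, against 5.67 and 5.56 in PPVL rats 2 and 3 and 5.54 to 5.64 in the sham rats. For this reason the genes that passed are also given without PPVL rat 1.

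PPVL spleens had higher levels of 4 matrix-binding integrin subunits, Itga8, Itgb5, Itga9 and Itga1, and of 2 adaptors, Parva and Fermt2, than sham spleens. The difference in means was between 0.19 and 0.79 on the log2 scale, that is, between 1.14-fold and 1.73-fold. None of the 7 measured leukocyte integrins passed the threshold, and neither did the platelet subunit Itga2b. Among so few genes 0 calls is near the 4.23% called over all genes. A gene was counted as higher or lower at an unadjusted p under 0.05 in limma (an empirical Bayes test of PPVL against sham spleens), the threshold of the study's methods. At this threshold 6 of the 37 genes were higher and 0 were lower, which is 16.2% higher, whereas 2.69% of all 18166 genes were higher and 1.55% lower, 4.23% in all. After Benjamini-Hochberg adjustment over all 36685 clusters, limma called 0 of the 37 and 0 of all genes, and the smallest adjusted p among the 37 was 0.847, for Itga8. The p-values and the standard errors (SE) below rest on the spread between 3 rats per group, which limma moderates toward that of all clusters. The study's own gene lists name Itga8, Itga1, Itgb5 and Parva as increased on these same arrays, so that these 4 are not independent evidence.

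Of the 37 genes, 25 had a higher mean in PPVL spleens and 12 a lower one, against 51.7% of all genes with a higher mean. The median log2 fold change was 0.07 over the 37 genes and 0.00 over all genes. The groups did not overlap for 8 of the 37: each PPVL rat lay above each sham rat for 7 genes, against 6.64% of all genes, and below for 1 gene, against 4.7%. Without PPVL rat 1, 3 of the 37 were higher at the same threshold, namely Itga8, Itgb5 and Parva, whereas 1.62% of all genes were.

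**Figure D1:**
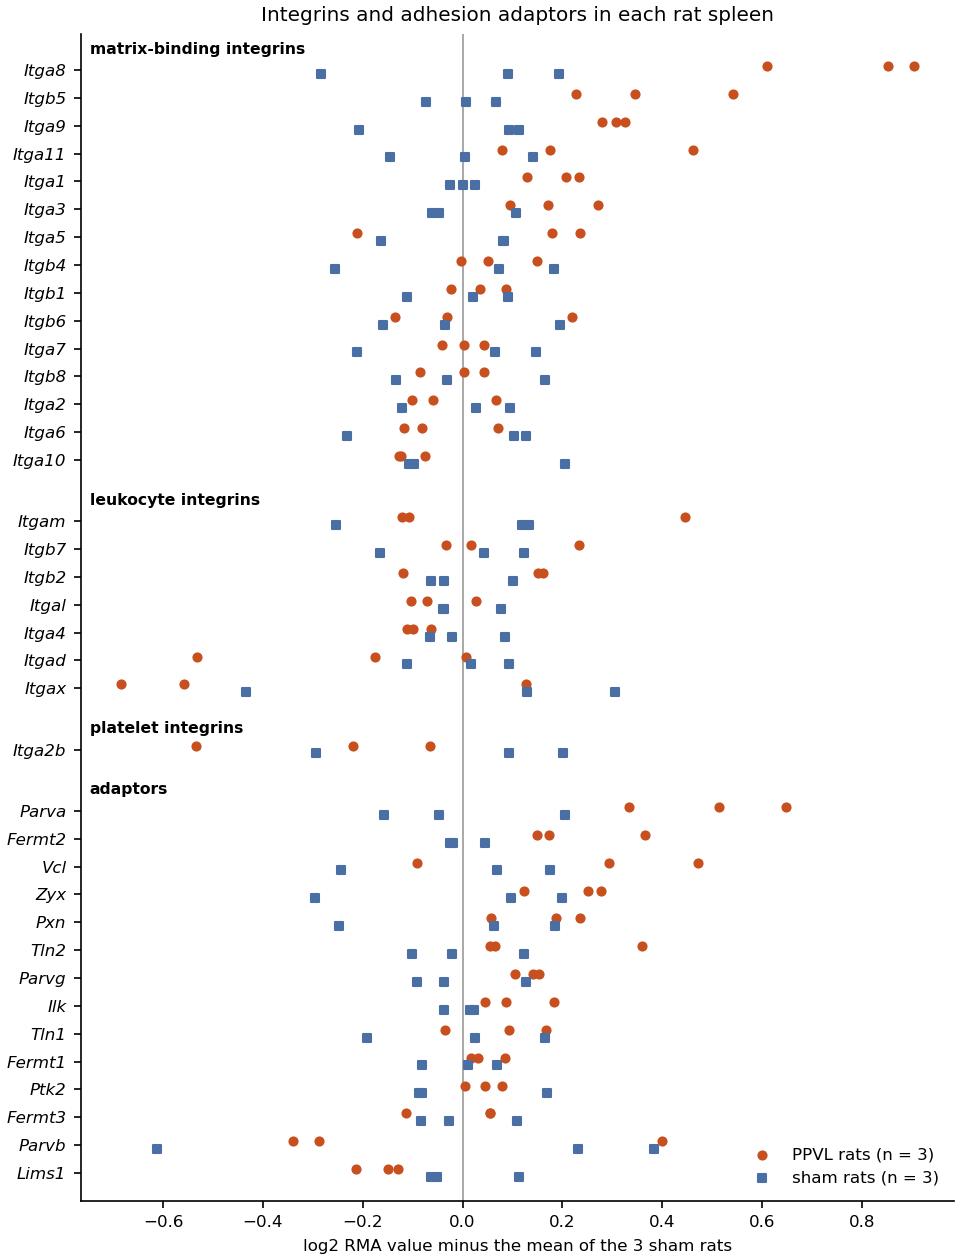
Level of each of the 37 measured genes in each rat, as the log2 RMA value minus the gene's mean over the 3 sham rats on the horizontal axis, with genes in rows by role group, PPVL rats as circles and sham rats as squares. The circles of Itga8, Parva and Itgb5 lie to the right of every square in their rows, whereas Parvb and Itgax vary widely within both groups.

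Itga8 encodes the α8 subunit, which pairs with β1, binds nephronectin, fibronectin and other matrix proteins, and marks smooth muscle and other contractile stromal cells. Its level was 9.37, 9.42 and 9.13 in PPVL rats 1, 2 and 3, against 8.71, 8.61 and 8.23 in sham rats 1, 2 and 3. Every PPVL rat lay above every sham rat, with 0.42 between the lowest PPVL and the highest sham value, which was the widest gap of the 37 genes. The log2 fold change was 0.79 (SE 0.15), with a 95% confidence interval of 0.43 to 1.15, and the p in limma was 0.00131 unadjusted and 0.847 adjusted. Itga8 ranked 20 of 18166 genes by p and 49 by the size of the increase. Without PPVL rat 1 the log2 fold change was 0.76.

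Itgb5 encodes the β5 subunit, whose only partner is αv, and the pair binds vitronectin; the αv gene was not analysed here. Its level was 10.13, 9.93 and 9.81 in PPVL rats 1, 2 and 3, against 9.59, 9.66 and 9.51 in sham rats 1, 2 and 3. The groups did not overlap, and PPVL rat 1 was the highest of the 6 rats. The log2 fold change was 0.37 (SE 0.11), with an unadjusted p of 0.0108 and an adjusted p of 0.973 in limma, and it was 0.29 without PPVL rat 1, still past the threshold.

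The promoters of Itga8 and Itgb5, the integrin subunits with the largest increases, are shown for the sequence around their annotated starts. Both are read from RefSeq on the GRCr8 build, 5′ to 3′ on the gene's own strand (the minus strand for both), from 250 bases before the start to 50 bases after it, and the capitals mark the 50 bases after the start. The Itga8 window lies at chr17:80410584-80410883 and has 60.3% G and C, and the Itgb5 window lies at chr11:80449324-80449623 and has 76.7%. The median over all promoters was 52.3%.
Itga8: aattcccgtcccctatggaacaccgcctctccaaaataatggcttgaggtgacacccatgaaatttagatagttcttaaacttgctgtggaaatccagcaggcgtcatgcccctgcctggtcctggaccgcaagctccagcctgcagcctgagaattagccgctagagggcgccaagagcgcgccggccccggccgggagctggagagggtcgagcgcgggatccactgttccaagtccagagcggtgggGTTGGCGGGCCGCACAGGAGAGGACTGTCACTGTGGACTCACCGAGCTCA
Itgb5: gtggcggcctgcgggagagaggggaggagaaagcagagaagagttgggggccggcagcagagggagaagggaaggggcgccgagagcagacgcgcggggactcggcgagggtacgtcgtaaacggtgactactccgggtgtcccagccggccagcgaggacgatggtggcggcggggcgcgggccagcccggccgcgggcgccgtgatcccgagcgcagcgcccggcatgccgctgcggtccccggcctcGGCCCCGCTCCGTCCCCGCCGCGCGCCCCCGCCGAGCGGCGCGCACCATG

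Such a window was at hand for 28 of the 37 genes, among them Itga8, Itgb5, Itga9 and Itga1 of the genes that were higher. The motif GGAATG, which TEAD factors, the DNA-binding partners of YAP and TAZ, recognise, was searched on both strands. It occurred in 8 of the 28 windows, those of Itga2b, Itga3, Itga4, Itga10, Itgb1, Itgb8, Vcl and Zyx, and in 13.9% of all 27457 promoters. The CArG box, the site of serum response factor, occurred in 1 of the 28, that of Itgb6, and in 1.64% of all promoters. Neither set of letters was in the windows of the 4 genes that were higher. At the shares over all promoters, 4 windows are too few to set these genes apart, and Parva and Fermt2 had no window.

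Itga9 encodes the α9 subunit, a partner of β1 that binds tenascin-C and osteopontin. Its level was 8.33, 8.34 and 8.30 in PPVL rats 1, 2 and 3, against 7.81, 8.11 and 8.13 in sham rats 1, 2 and 3. The PPVL rats were close together and above the sham rats, among which sham rat 1 was lowest. Itga9 had a log2 fold change of 0.30 (SE 0.11) with an unadjusted p of 0.0278 and an adjusted p of 0.973 in limma. The call was lost without any one of the PPVL rats, at 0.29 to 0.32, and without sham rat 1, at 0.20.

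Itga1 encodes the α1 subunit, which with β1 forms a collagen receptor found on smooth muscle and other mesenchymal cells. Its level was 10.23, 10.25 and 10.15 in PPVL rats 1, 2 and 3, against 10.02, 9.996 and 10.05 in sham rats 1, 2 and 3. The groups did not overlap, although the gap between them was 0.10. For Itga1 the log2 fold change was 0.19 (SE 0.08), with a 95% confidence interval of 0.0021 to 0.38 and an unadjusted p of 0.0481 and an adjusted p of 0.973 in limma. The call was lost when any one of the 6 rats was left out, with log2 fold changes between 0.17 and 0.22.

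The β1 subunit Itgb1, the common partner of α1, α8 and α9, was at 10.54, 10.65 and 10.60 in the PPVL rats, against 10.58, 10.45 and 10.65 in the sham rats. Its groups overlapped, and the log2 fold change of 0.03 (SE 0.09) was not past the threshold. Which cells the Itgb1 values came from was not tested. The differences in log2 fold change from Itgb1 were 0.76 for Itga8, 0.27 for Itga9, 0.16 for Itga1 and 0.34 for Itgb5. For each of these 4 differences the 3 PPVL rats lay above the 3 sham rats, and the exact two-sided permutation p was 0.1, the smallest that 3 rats against 3 can give, or 0.113 after Benjamini-Hochberg adjustment over 9 such pairs. The 9 pairs were chosen after their values were seen. Each of these 4 genes already had groups that did not overlap, so that the permutation p-values are not independent of the single calls. For Itga8 the outcome was fixed in advance, since its gap of 0.42 was wider than the whole range of Itgb1, 10.45 to 10.65.

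**Figure D2:**
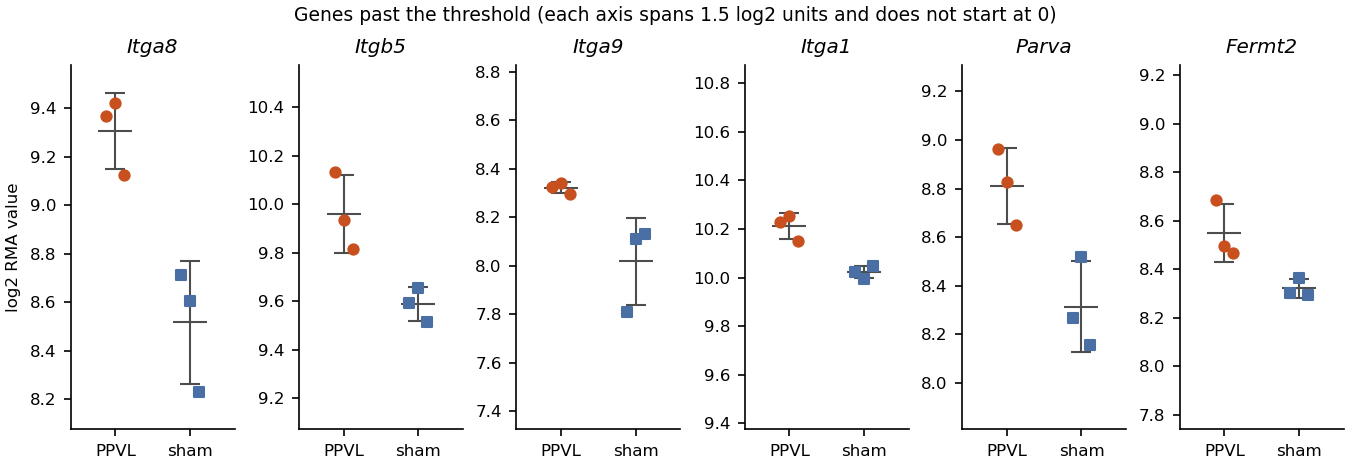
Log2 RMA level in each rat, PPVL rats left and sham rats right, of the genes past an unadjusted p under 0.05, with lines at the group means and bars of 1 SD over 3 rats. In all 6 genes the PPVL values lie above the sham values, and the space between the groups is widest for Itga8.

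The other 11 measured matrix-binding subunits did not pass the threshold. The log2 fold changes nearest to it were those of Itga3, a laminin receptor subunit, at 0.18 (SE 0.09), and Itga11, a collagen receptor subunit of fibroblasts, at 0.24 (SE 0.13). Itga11 was at 8.26, 7.88 and 7.98 in the PPVL rats, against 7.81, 7.94 and 7.66 in the sham rats, so that PPVL rats 1 and 3 were above every sham rat and PPVL rat 2 was not. The laminin receptor subunit Itga6, with a log2 fold change of -0.04, the fibronectin receptor subunit Itga5, at 0.07, the collagen receptor subunit Itga2, at -0.03, and Itgb4, the partner of α6 in epithelium, at 0.07, had overlapping groups. Itga2 and Itga1 are neighbours on chromosome 2 with no protein-coding gene between them, and Itga2 was at 7.09, 7.26 and 7.13 in the PPVL rats, against 7.07, 7.22 and 7.29 in the sham rats.

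Itga7, Itga10, Itgb6 and Itgb8 were below the 40th percentile of mean level of all clusters (5.68). Among the matrix-binding subunits the lowest log2 fold change was that of Itga10, a collagen receptor subunit of cartilage, at -0.11 (SE 0.11). Its level was 5.55, 5.60 and 5.55 in the PPVL rats, against 5.88, 5.57 and 5.58 in the sham rats, and the groups overlapped. In each rat the mean over the 15 measured subunits was 7.70, 7.67 and 7.58 for the PPVL rats, against 7.54, 7.54 and 7.45 for the sham rats, and these groups did not overlap.

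Leukocyte integrins gave no call in either direction, and among so few genes this is near the 4.23% called over all genes. Over the 7 measured genes, 3 had a higher and 4 a lower mean in PPVL spleens, with a median log2 fold change of -0.05. Itgb2, the β2 subunit shared by the leukocyte integrins αL, αM, αX and αD, was at 11.01, 11.02 and 10.74 in the PPVL rats, against 10.82, 10.96 and 10.79 in the sham rats. The groups overlapped, and the log2 fold change was 0.06 (SE 0.11). Itgal, the α subunit of LFA-1 on lymphocytes, had a log2 fold change of -0.05 (SE 0.09). The subunits of the lymphocyte homing receptors that bind VCAM-1 and MAdCAM-1 had log2 fold changes of -0.09 (SE 0.08) for Itga4 and 0.07 (SE 0.12) for Itgb7.

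Itgam, Itgax and Itgad, which encode αM, αX and αD of myeloid cells, lie next to one another on chromosome 1. Itgax, a marker of dendritic cells and some macrophages, was at 7.502, 8.19 and 7.38 in PPVL rats 1, 2 and 3, against 8.19, 8.37 and 7.63 in sham rats 1, 2 and 3. PPVL rats 1 and 3 were below the sham rats, whereas PPVL rat 2 was level with them, and the log2 fold change of -0.37 (SE 0.27) was not past the threshold. Itgad, which macrophages of the splenic red pulp express, was at 10.67, 10.85 and 10.31 in the PPVL rats, against 10.86, 10.94 and 10.73 in the sham rats, with a log2 fold change of -0.23 (SE 0.15).

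Without PPVL rat 2, Itgax and Itgad passed the unadjusted threshold, with log2 fold changes of -0.62 and -0.35, in a setting in which 2.77% of all genes were lower, against 1.55% with all 6 rats. Of 6 dendritic cell markers, 2 were higher in PPVL spleens with all 6 rats (33.3%, against 2.69% of all genes). They were Flt3, with a log2 fold change of 0.27 (SE 0.08), and Clec10a, with 0.35 (SE 0.13), and without PPVL rat 1 neither passed the threshold. Flt3 is also named as increased on these same arrays in the study's own gene lists. The mean over the 6 markers was 8.34, 8.35 and 8.24 in PPVL rats 1, 2 and 3, against 8.15, 8.13 and 8.28 in sham rats 1, 2 and 3. The part of dendritic or other cell content in the Itgax values was not tested. Itgam, the highest of the leukocyte group by log2 fold change, at 0.07 (SE 0.19), was at 7.67, 8.24 and 7.69 in the PPVL rats, against 7.93, 7.91 and 7.54 in the sham rats. PPVL rat 2 was the highest of the 6 rats for Itgam. In the same rats the mean over 9 neutrophil markers was 7.30, 8.31 and 7.69 in PPVL rats 1, 2 and 3, against 7.65, 7.63 and 7.21 in sham rats 1, 2 and 3, and PPVL rat 2 was again highest. None of the 9 passed the threshold with all 6 rats, which 4.23% of all genes passed. Without PPVL rat 1, 3 of the 9 were higher, whereas 1.62% of all genes were. The part of neutrophil content in the Itgam values was not tested.

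The platelet subunit Itga2b, which encodes αIIb, the fibrinogen receptor subunit of platelets and megakaryocytes, was at 7.39, 7.54 and 7.07 in PPVL rats 1, 2 and 3, against 7.70, 7.81 and 7.31 in sham rats 1, 2 and 3. The groups overlapped, and the log2 fold change was -0.27 (SE 0.17), not past the threshold. Without sham rat 3 it was -0.42 and passed the unadjusted threshold. The 7 measured markers of platelets and megakaryocytes all had lower means in PPVL spleens, whereas 51.7% of all genes had higher ones. Their median log2 fold change was -0.34, and 0 of the 7 passed the threshold, which 4.23% of all genes passed. Their mean level was 7.77, 8.49 and 7.81 in PPVL rats 1, 2 and 3, against 8.55, 8.37 and 8.16 in the sham rats. PPVL rat 2 was the highest PPVL rat for Itga2b and for these markers. The part of platelet content in the Itga2b values was not tested.

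**Figure D3:**
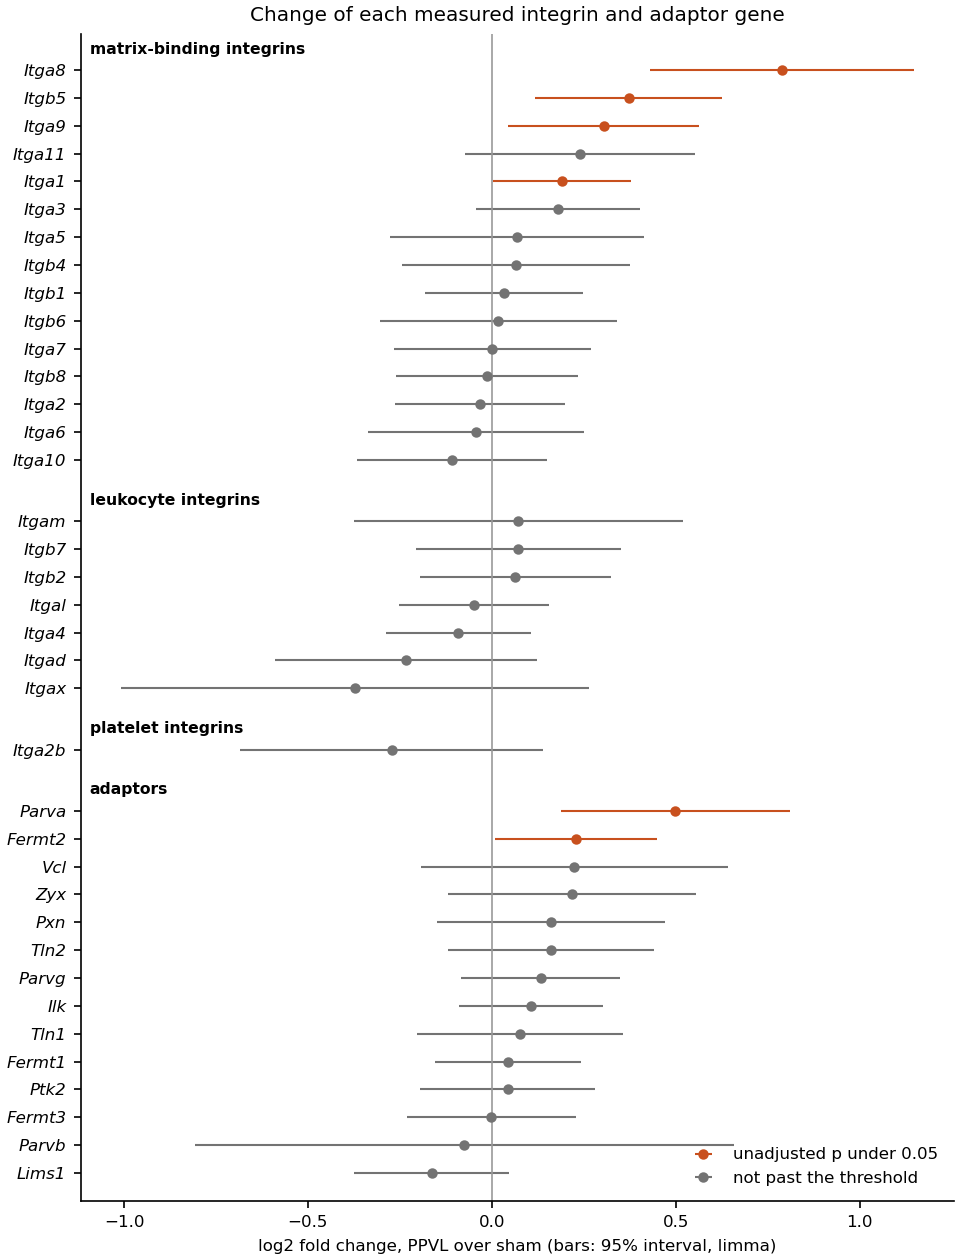
Log2 fold change, PPVL over sham, of each of the 37 measured genes, by role group, with bars of the 95% confidence interval from limma and orange points for genes past an unadjusted p under 0.05. The 6 orange points are matrix-binding integrins and adaptors, from 0.19 for Itga1 to 0.79 for Itga8, and no interval of a leukocyte integrin lies apart from 0.

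Among the 14 adaptors, 2 were higher (14.3%, against 2.69% of all genes) and 0 lower (against 1.55% of all genes). A higher mean in PPVL spleens was found for 11, against 51.7% of all genes, and the median log2 fold change was 0.12. Parva encodes α-parvin, which binds integrin-linked kinase and actin in adherent cells. Its level was 8.96, 8.83 and 8.65 in PPVL rats 1, 2 and 3, against 8.27, 8.52 and 8.16 in sham rats 1, 2 and 3. Every PPVL rat lay above every sham rat. Parva had a log2 fold change of 0.50 (SE 0.13), with a 95% confidence interval of 0.19 to 0.81 and an unadjusted p of 0.00694 and an adjusted p of 0.973 in limma, and Parva ranked 104 of 18166 genes by p. Without PPVL rat 1 it was 0.42, still past the threshold.

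The parvin paralogs did not pass the threshold. Parvg, the γ-parvin of blood cells, had a log2 fold change of 0.13 (SE 0.09). Parvb, the β-parvin, was at 8.90, 9.64 and 8.96 in PPVL rats 1, 2 and 3, against 9.47, 9.63 and 8.63 in sham rats 1, 2 and 3, and with a log2 fold change of -0.08 (SE 0.31) it had the largest spread within groups of the 37 genes. PPVL rat 2 and sham rats 1 and 2 were high, and the others low. The mean over the 5 measured markers of erythroid cells was 8.02, 10.11 and 9.09 in PPVL rats 1, 2 and 3, against 10.11, 10.25 and 8.97 in sham rats 1, 2 and 3, with the same 3 rats high. The part of erythroid content in the Parvb values was not tested. The difference in log2 fold change was 0.37 between Parva and Parvg, for which the PPVL rats lay above the sham rats (exact permutation p = 0.1, the smallest possible), and 0.57 between Parva and Parvb, for which the groups overlapped (exact permutation p = 0.2).

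Fermt2 encodes kindlin-2, which binds β integrin tails in most adherent tissues. Its level was 8.69, 8.49 and 8.47 in PPVL rats 1, 2 and 3, against 8.30, 8.36 and 8.29 in sham rats 1, 2 and 3. The groups did not overlap, but the gap was 0.10. For Fermt2 the log2 fold change was 0.23 (SE 0.09) with an unadjusted p of 0.0434 and an adjusted p of 0.973 in limma, and it was 0.16 and not past the threshold without PPVL rat 1. The call was also lost without PPVL rat 2 or any one of the sham rats, with 0.22 to 0.26. Fermt3, the kindlin-3 of blood cells, was at 10.04, 10.04 and 9.87 in the PPVL rats, against 9.96, 10.10 and 9.90 in the sham rats, a log2 fold change of 0.00 (SE 0.10). The difference in log2 fold change between Fermt2 and Fermt3 was 0.23, and the groups did not overlap for it (exact permutation p = 0.1, the smallest possible). Fermt1, the kindlin-1 of epithelium, was below the 40th percentile of mean level.

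Integrin-linked kinase and PINCH-1, which hold parvin in a common complex, also had groups that did not overlap. Ilk, the kinase-like scaffold, was at 9.81, 9.71 and 9.67 in the PPVL rats, against 9.59, 9.65 and 9.64 in the sham rats, with a log2 fold change of 0.11 (SE 0.08). Lims1, which encodes PINCH-1, was at 8.78, 8.76 and 8.70 in the PPVL rats, against 8.86, 8.85 and 9.03 in the sham rats, with a log2 fold change of -0.16 (SE 0.09). Ilk lay above the sham rats in each PPVL rat and Lims1 below them, but neither passed the threshold. Within the complex, the difference in log2 fold change was 0.39 between Parva and Ilk and -0.27 between Lims1 and Ilk. For both the groups did not overlap (exact permutation p = 0.1, the smallest possible). For Lims1 and Ilk this outcome was fixed in advance, since the groups of each gene already lay apart in opposite directions. The 9 pairs were chosen after their values were seen, and the smallest permutation p among them was 0.113 after Benjamini-Hochberg adjustment. Parva and Fermt2 also had groups that did not overlap before they were paired, so that their permutation p-values are not independent of the single calls.

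The remaining adaptors had overlapping groups and did not pass the threshold. Vinculin (Vcl), which strengthens the link of talin to actin, was at 9.45, 9.63 and 9.06 in the PPVL rats, against 9.22, 9.33 and 8.91 in the sham rats, a log2 fold change of 0.22 (SE 0.18). The LIM protein zyxin (Zyx) had a log2 fold change of 0.22 (SE 0.14) and the scaffold paxillin (Pxn) 0.16 (SE 0.13). The talins, which activate integrins by binding the β tail, had log2 fold changes of 0.08 (SE 0.12) for Tln1 and 0.16 (SE 0.12) for Tln2. Focal adhesion kinase (Ptk2) had a log2 fold change of 0.04 (SE 0.10). The mean over the 14 adaptors was 8.69 to 8.85 in the PPVL rats and 8.57 to 8.76 in the sham rats, and these ranges overlapped.

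Genes of the same pathway outside the list were counted at the same threshold. The study's own gene lists name Col1a1, Col1a2, Col3a1, Jam3, F11r and Enah as increased on these same arrays. These genes, and the counts below that hold them, are therefore not independent evidence. Of 24 measured matrix ligands of integrins, 4 were higher (16.7%, against 2.69% of all genes) and 0 lower (against 1.55%). Their median log2 fold change was 0.11. The 4 that were higher were the fibrillar collagen chains Col1a1, at 1.51 (SE 0.43), Col3a1, at 0.92 (SE 0.33), and Col1a2, at 0.91 (SE 0.35), and nidogen-1 (Nid1) of basement membranes, at 0.41 (SE 0.15). Col1a1 was at 10.96, 9.80 and 9.45 in PPVL rats 1, 2 and 3, against 8.78, 8.97 and 7.93 in sham rats 1, 2 and 3. PPVL rat 1 was the highest of the 6 rats for all 4, and without it only Col1a1 passed the threshold, at 1.06, whereas Col3a1 was 0.57, Col1a2 0.54 and Nid1 0.29.

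Of 10 measured cell-surface ligands, 2 were higher (20%, against 2.69% of all genes) and 0 lower (against 1.55%), with a median log2 fold change of 0.06. Jam3, a junctional adhesion molecule that αMβ2 binds, was at 8.22, 8.27 and 8.35 in the PPVL rats, against 7.91, 7.93 and 8.08 in the sham rats, with groups that did not overlap and a log2 fold change of 0.31 (SE 0.09). F11r, the ligand JAM-A of αLβ2, had a log2 fold change of 0.26 (SE 0.11). The ligands Icam1, at 0.16 (SE 0.10), and Icam4, at -0.31 (SE 0.25), were next by p and did not pass. Without PPVL rat 1, Jam3 and F11r were still past the threshold, at 0.34 and 0.32.

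Of 37 measured further genes of focal adhesions and integrin signaling, 7 were higher (18.9%, against 2.69% of all genes) and 0 lower (against 1.55%). A higher mean in PPVL spleens was found for 30, against 51.7% of all genes, and the median log2 fold change was 0.10. By log2 fold change, the 4 with the smallest p were Pdlim5, a PDZ and LIM protein of the actin cytoskeleton, at 0.33 (SE 0.10), Sorbs3, the vinculin-binding vinexin, at 0.30 (SE 0.10), Kank2, a talin-binding protein, at 0.36 (SE 0.13), and Enah, an actin regulator, at 0.29 (SE 0.11). Without PPVL rat 1, 1 of the 37 was higher, near the 1.62% of all genes in that setting. None of 12 measured genes of inside-out activation, the route by which Rap1 and talin switch integrins on, passed the threshold, which 4.23% of all genes passed. The 4 with the smallest p, Rasgrp2, Rassf5, Rapgef1 and Fyb1, had log2 fold changes of 0.10, 0.10, 0.13 and 0.09.

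Marker genes of contractile and stromal cells were examined beside the matrix-binding subunits. The study's own gene lists name Mylk and Pdgfrb as increased on these same arrays, so that the counts that hold them are not independent evidence. All 8 measured smooth muscle markers had higher means in PPVL spleens, against 51.7% of all genes. Of these 8, 3 were higher at the threshold (37.5%, against 2.69% of all genes). They were Tpm2, with a log2 fold change of 0.55 (SE 0.10), Synpo2, at 0.37 (SE 0.12), and Mylk, at 0.27 (SE 0.11). The mean over the 8 was 8.50 to 8.73 in the PPVL rats and 8.30 to 8.37 in the sham rats, and these ranges did not overlap, also without PPVL rat 1, which was the highest. Of 10 markers of fibroblasts and reticular stroma 1 was higher, Pdgfrb, at 0.51 (SE 0.18), and the mean over the list was 9.08 to 9.86 in the PPVL rats and 8.72 to 9.09 in the sham rats, with PPVL rat 1 the highest at 9.86 and PPVL rats 2 and 3 at 9.08 and 9.11. Of 5 measured endothelial markers 0 passed the threshold, which 4.23% of all genes passed. Their mean was 8.29 to 8.57 in the PPVL rats and 8.31 to 8.37 in the sham rats. Acta2 and Cnn1 of the smooth muscle list and Pecam1, Kdr and Stab2 of the endothelial list were not analysed here. Without PPVL rat 1, 1.62% of all genes were higher. In that setting 1 of the 8 smooth muscle markers was higher, Tpm2, with a log2 fold change of 0.53. Synpo2, at 0.31, Mylk, at 0.22, and the stromal marker Pdgfrb, at 0.39, did not pass the threshold there. Of the 10 stromal markers, 1 was higher without PPVL rat 1, namely Lum, at 0.49 (SE 0.14). The part of smooth muscle or stromal content in the levels of Itga8, Itga1, Itgb5, Itga9, Parva and Fermt2 was not tested.

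**Figure D4:**
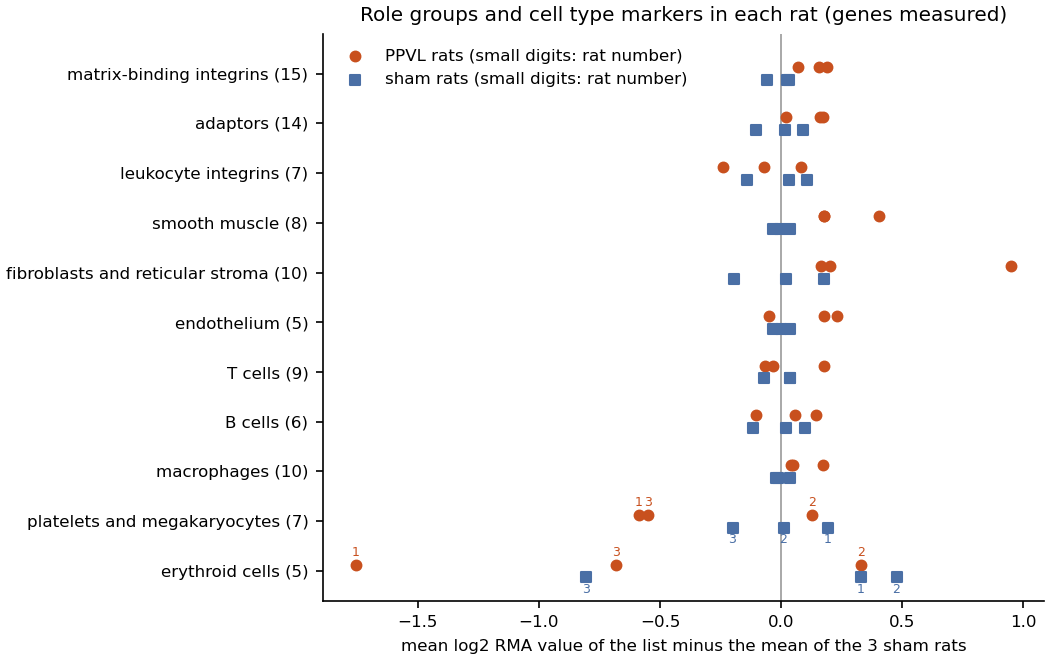
Mean log2 RMA value over each list in each rat, minus the mean of the 3 sham rats, with PPVL rats drawn above sham rats in each row and the number of measured genes in brackets. Matrix-binding integrins and smooth muscle markers have the PPVL rats to the right of the sham rats, and in the lowest rows PPVL rat 2 lies to the right of PPVL rats 1 and 3. Macrophage markers also lie apart, but narrowly, with a mean log2 RMA value of 10.4261 in the lowest PPVL rat and 10.4255 in the highest sham rat.

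Over 15 alternative settings (6 of which each left out 1 rat), Itga8, Parva and Itgb5 were past the unadjusted threshold in 15 of 15. Their log2 fold changes ranged from 0.65 to 0.89 for Itga8, from 0.42 to 0.60 for Parva and from 0.29 to 0.44 for Itgb5. Itga9 was past it in 11 of 15, Fermt2 in 8 and Itga1 in 6. The log2 fold change was positive for each of the 6 genes in each of the 15 settings. None of the 37 genes had an adjusted p under 0.05 in limma in any of them.

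**Figure D5:**
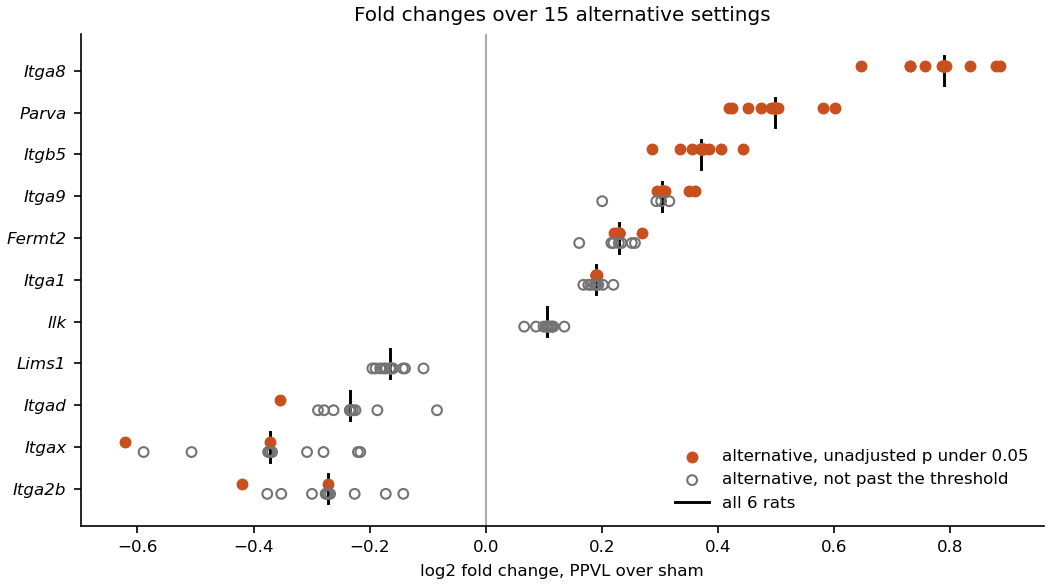
Log2 fold change, PPVL over sham, of 11 genes under each of 15 alternative settings, with filled points where the gene was past an unadjusted p under 0.05, open points where it was not, and a bar at the value with all 6 rats. All points of Itga8, Parva and Itgb5 are filled, and Itgad, Itgax and Itga2b have 1 or 2 filled points below 0.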

How the data were processed

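For 3 PPVL and 3 sham spleens, the authors deposited log2 values of 36685 transcript clusters, made with RMA in Transcriptome Analysis Console. No filter was stated or applied, 0 columns were left unmapped, and scanner files were not used here. The build of the array design is not given in the sources used here. Genes were named from the platform annotation, updated by Entrez identifier with the RefSeq table of GRCr8, which matched 18394 of 18511 clusters with 1 symbol. Each of the 37 genes had 1 such cluster. All clusters were fitted together in R 4.3.3 by lmFit and eBayes of limma 3.58.1 without a covariate, with Benjamini-Hochberg adjustment over all clusters. The script was tested on simulated data. Promoters were searched, and figures drawn, with Python 3.11.15 and pandas 2.3.3. Groups came from the sample titles.

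The 15 alternatives were fits with the rat number as a block, without each rat in turn, without dim clusters (mean under the 40th percentile), without unnamed clusters, with array weights, with a robust prior, with a variance trend, after median centring, after quantile normalization and on the mean of a gene's clusters. Per-rat values were given for genes past the threshold, with groups apart, or with the highest or lowest change of a role group, and for partners, paralogs and genes singled out after their values were seen. Pathway genes were named up to 4 per list by p. Further marker lists were mesothelium (mean 6.55 to 7.03 in PPVL and 6.45 to 7.68 in sham rats) and dendritic cells (mean 8.24 to 8.35 in PPVL and 8.13 to 8.28 in sham rats). Of 6 mesothelium genes 1, Wt1, was higher with all 6 rats (16.7%, against 2.69% of all genes). None was higher without PPVL rat 1, where 1.62% of all genes were. Marker genes were fitted without PPVL rat 1 after the data were seen. The members and lists were chosen with earlier results of these data known. Precision is limited by the 3 arrays in each group.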

Additional observations from a re-analysis of the deposited data

How the results depend on the processing

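With the rat number as a block, 2 of the 37 genes were lower (Itgax and Itga2b, so 1 leukocyte and 1 platelet integrin), 1 adaptor and 8 matrix ligands were higher, and the calls of Itga1 and Fermt2 were lost. In that setting 2.34% of all genes were higher and 1.49% lower. The sample titles state no pairing of PPVL with sham rats. Deviations from the group means correlated at -0.129, 0.143 and 0.119 between same-numbered rats. Between differently numbered rats the correlations ran from -0.276 to 0.177, and not every rat correlated best with its own number. With so few rats per group, these correlations cannot decide whether the numbers paired the samples. Without dim clusters the median log2 fold change was 0.18 over matrix-binding integrins and 0.33 over matrix ligands. With array weights 1 cell-surface ligand was higher and the log2 fold change of Itgam was -0.00631. With quantile normalization 1 cell-surface ligand was higher and Itgb8 was at 0.00435. With median centring 1 adaptor and 4 further focal adhesion genes were higher, and Fermt3 was at 0.00326.

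With each rat left out in turn, the number higher was 3 to 4 of the 37 genes, 2 to 3 matrix-binding integrins, 1 to 2 adaptors, 1 to 8 matrix ligands, 1 to 2 cell-surface ligands, 1 to 9 further focal adhesion genes and 0 to 1 genes of inside-out activation. The number lower was 0 to 2 of the 37, 0 to 2 leukocyte integrins, 0 to 1 platelet integrins and 0 to 1 cell-surface ligands. In the same 6 settings 1.62% to 2.97% of all genes were higher and 0.925% to 2.77% lower. Matrix ligands gave 1 higher gene without PPVL rat 1 or sham rat 3 and 8 without PPVL rat 2, and further focal adhesion genes gave 1 without PPVL rat 1. Of all 18166 genes, 769 were called in either direction with all 6 rats, 463 without PPVL rat 1 and 919 without PPVL rat 2. The cause of these changes was not tested.

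None of the genes whose sign changed was past the threshold with all 6 rats. With 1 rat left out, their log2 fold changes ran from -0.093 to 0.016 for Itga2, -0.016 to 0.21 for Itga5, -0.16 to 0.021 for Itga6, -0.10 to 0.074 for Itga7, -0.023 to 0.079 for Itgb1, -0.062 to 0.16 for Itgb4, -0.084 to 0.11 for Itgb6, -0.0799 to 0.0691 for Itgb8, -0.011 to 0.13 for Itgb7 and -0.11 to 0.17 for Itgam. Further ranges were -0.38 to 0.12 for Parvb, -0.00036 to 0.13 for Ptk2, -0.0200 to 0.16 for Tln1, -0.043 to 0.055 for Fermt3, -0.046 to 0.33 for Cdh1, -0.066 to 0.20 for Thy1, -0.0061 to 0.30 for Skap1 and -0.053 to 0.19 for Apbb1ip.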
